A study of Homo sapiens with 14 samples.

Results

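The genes described here are the transporters of organic solutes and sugars and their relatives of the major facilitator superfamily (MFS). They were picked by a rule on symbols, set with earlier results of these data known. The rule took the solute carrier families from SLC2 to SLC52 that move sugars, organic acids, vitamins, nucleosides, lipids and trace metals. It also took the SLCO organic anion transporters and the MFSD proteins. Of 19440 gene symbols in the count tables, 172 matched this rule and 92 held 20 or more footprints summed over the 14 libraries. The 92 came from 27 of 29 families. The other 80 symbols, of which 50 had no count in any library, were left aside, and SLC14 and SLC28 had no symbol above the minimum. The closest symbols on either side of it had 20 and 19 counts. Of the 92, 85 passed the filter on low counts and were tested, and the remaining 7 are given below by their counts.

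Transporters of the MFS cross the membrane many times, with little of the chain in the lumen or extracellular space, and carry a solute by rocking between outward-open and inward-open states. Such proteins are made by ribosomes at the endoplasmic reticulum (ER), where translocation and insertion machines place each helix in the bilayer during synthesis. The ER membrane protein complex (EMC) is one of these machines: it has a membrane-embedded insertase part, to which EMC6 belongs, and a large lumenal part, to which EMC7 and EMC10 contribute. Many solute carriers begin with a transmembrane helix in place of a cleaved signal peptide.

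The study asked which nascent membrane proteins the EMC contacts during translation, by selective ribosome profiling in Flp-In T-REx 293 cells, a human embryonic kidney (HEK293) line that carries a single site for inducible transgenes. 3Flag-EMC6 was expressed in EMC6 knockout cells, and other cells expressed 3Flag-EMC7 or 3Flag-EMC10, for which the labels give no knockout. Expression was switched on in all lines by 72 h in doxycycline (0.5 to 1.0 ng/mL). Footprints of ribosomes were sequenced from solubilized microsomes (input) and from the material bound by Flag beads (IP). The EMC6 line had 2 inputs and 2 IPs, the EMC7 line 2 and 2, and the EMC10 line 3 and 3, with each IP made from the input of the same number. No IP from cells without a tagged subunit was analysed here, so what binds the beads without a tag was not measured. The EMC7 and EMC10 cells are labelled with a transgene added to the cells, and the labels do not say whether a line is 1 clone.

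Footprints on genes ranged from 515302 to 3395114 per library and were fewest in the EMC6 line, with 515302 and 960279 in its IPs. Between 9.28% and 12.5% of EMC6 line footprints fell outside genes, against 2.76% to 5.15% elsewhere. The message of the bait took 14.4% to 15.0% of IP counts with EMC7 and 24.6% to 26.1% with EMC10, against 0.431% to 0.449% with EMC6. In the inputs of the same lines it took 0.53% to 0.60%, 0.31% to 0.39% and 0.0030% to 0.0046%, so it was enriched with each bait. Of 10 kidney tubule and podocyte markers 5 were at 0 in every library, while LRP2, the only one tested, had 311 to 665 CPM in inputs. Of the neural markers reported in HEK293, VIM, NEFL and INA were present. NEFM and NEFH had 1 and 4 counts over the inputs and 0 over the IPs. The epithelial markers KRT8, KRT18, CDH1 and EPCAM were present. Markers of blood and liver summed to at most 1.08 CPM in any input and to 0 in every IP. CPM is the count of a gene scaled to a common library size, here the TMM-scaled one, and changes are log2 of IP over input ± SE from edgeR's quasi-likelihood fit, called at an adjusted p of 0.05 over all 9458 genes tested. CPM depends on the length of the coding sequence, so levels are compared between libraries and never between genes.

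Almost every tested transporter message was enriched with every bait, and none was depleted. The count minimum and the filter took in the IPs, so a member enriched there could pass through its IPs alone. How many did so was not counted, and the filter was the same for all genes. With 3Flag-EMC6, 81 of 85 were called higher in the IP, where 17.6% of all genes tested were. With 3Flag-EMC7 the count was 81, against 20.4% of all genes, and with 3Flag-EMC10 it was 81, against 19.9%. No member was called lower with any bait, while 9.27%, 9.68% and 13.9% of all genes were. At an unadjusted p of 0.05 in edgeR 0 members were lower with each bait, where 16.0%, 16.2% and 20.6% of all genes were. DESeq2 also called 0 members lower with each, where 336, 540 and 743 of 9458 genes were. A set of 76 members (89.4%) was called higher with all 3 baits, a pattern held by 15.2% of all genes, while 4.03% of all genes were called lower with all 3.

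The median change of the 85 members was 2.75 with EMC6 (6.72-fold), 2.16 with EMC7 (4.47-fold) and 2.32 with EMC10 (5.00-fold). The medians of all genes tested were -0.12, -0.14 and -0.17. Averaged over the 3 lines, 84 members were called higher, against 23.7% of all genes, with a median of 2.41 where all genes had -0.19. Single libraries showed the same separation: the IPs lay above the inputs without overlap for 83 members in each line, against 25.1%, 29.1% and 23.0% of all genes for EMC6, EMC7 and EMC10. The reverse order was seen for 0 members in each line, against 30.4%, 36.7% and 26.9% of all genes. In 82 of 85 members the IP was above its own input in 7 of 7 pairs, a count not made over all genes. The members' median log2 paired ratio exceeded that of all genes tested by 2.13 to 2.77 across the pairs.

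The size of these changes depended on the scaling. When libraries were scaled on their totals alone, in which the bait messages count, the line-averaged median moved from -0.19 to -1.13 for all genes and from 2.41 to 1.46 for the members. Called members then numbered 79 with EMC6, 67 with EMC7 and 70 with EMC10, against 10.5%, 10.6% and 8.04% of all genes. A single member, SLC2A3, was called lower with EMC7, where 63.8% of all genes were, with 45.7% for EMC6 and 75.8% for EMC10. Scaled on lists of ER luminal, lysosomal and secreted proteins, the medians were -0.68 and 1.92, and 80, 74 and 80 members were called higher, against 13.1%, 13.1% and 15.0% of all genes. Leaving out the second EMC6 IP, the deeper one, left 70 members called with EMC6, against 9.95% of all genes.

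**Figure D1:**
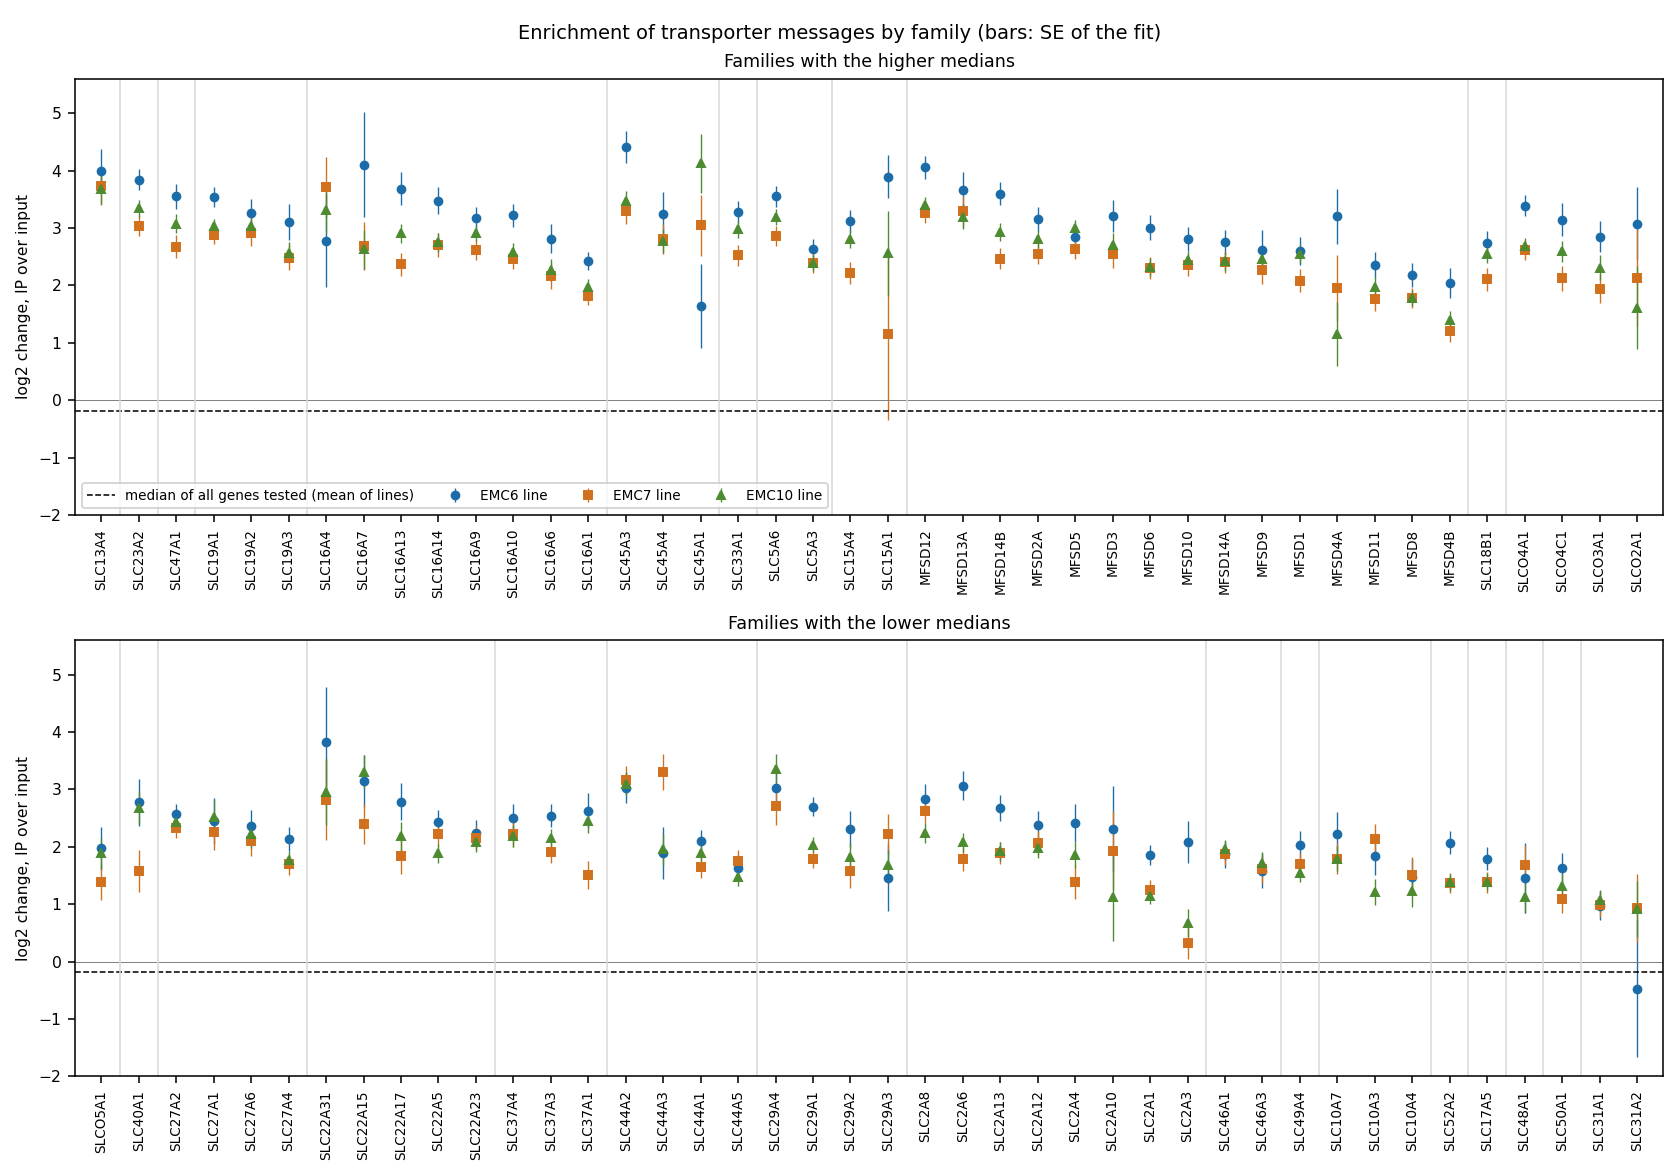
Log2 change of IP over input (vertical axis) for 84 of the tested members with the EMC6 (circles), EMC7 (squares) and EMC10 (triangles) baits, with bars for the SE of the fit; members are grouped by family between grey lines, and the dashed line is the median of all genes tested, -0.19. Nearly all points lie above 1, and SLC31A2 with EMC6, at -0.47 ± 1.19, is the single point below 0.

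Over the mean of the lines the members ranged from 0.46 to 3.80, with 84 above 1, 61 above 2 and 15 above 3. Among families with 3 or more tested members, medians ran from 3.07 in SLC19, 2.98 in SLC16 and 2.94 in SLC45, through 2.54 in MFSD, 2.37 in SLCO, 2.32 in SLC27, 2.27 in SLC22, 2.13 in SLC44 and 2.04 in SLC29, to 2.02 in SLC2 and 1.73 in SLC10, with SLC37 between SLC22 and SLC44. Families were not compared by a test, since their members were chosen with earlier results of these data known. The families overlapped: the 8 SLC2 members reached from 1.03 to 2.57 and the 15 MFSD members from 1.55 to 3.57.

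The member with the largest mean change was SLC13A4, a sodium-coupled sulfate transporter (chromosome 7, 135681231 to 135728186 on GRCh38). Its inputs held 1.09 and 5.82 CPM in the EMC6 line, 4.65 and 4.18 in the EMC7 line, and 5.10, 6.16 and 5.36 in the EMC10 line. Its IPs held 39.3 and 69.0, then 61.1 and 58.5, then 59.0, 90.5 and 63.1 CPM. All IPs lay far above all inputs, across lines as well as within them, and the mean change was 3.80 ± 0.19 (adjusted p = 4.183e-19). SLC45A3, a sugar-transporter relative known as the prostate protein prostein, rose by 3.73 ± 0.14, from 4.34 and 7.19 to 101 and 144 CPM in the EMC6 line.

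Glucose transporters of the SLC2 family were all called higher over the mean of the lines, by changes that spanned 1.03 to 2.57. SLC2A1 (GLUT1), the basal glucose transporter of most cells (chromosome 1, 42925353 to 42958868), had inputs of 236 and 321 CPM in the EMC6 line, 624 and 679 in the EMC7 line, and 658, 606 and 715 in the EMC10 line. Its IPs had 925 and 1099, then 1661 and 1441, then 1412, 1442 and 1514 CPM. Groups did not overlap within any line, and the change over the lines was 1.42 ± 0.09 (adjusted p = 5.009e-16), among the 8 smallest of the 85. On library totals its calls were lost with EMC7 (0.23) and EMC10 (0.024).

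SLC2A3 (GLUT3), the high-affinity glucose transporter best known from neurons, changed by 1.03 ± 0.18 (adjusted p = 6.943e-06). Its inputs held 6.51 and 11.6 CPM with EMC6, 27.7 and 23.5 with EMC7, and 16.7, 27.5 and 23.8 with EMC10. IPs held 29.9 and 44.9, then 38.8 and 24.0, then 27.7, 30.5 and 49.7 CPM. Its groups were well apart in the EMC6 line, barely apart in the EMC10 line and overlapping in the EMC7 line. With EMC6 the change was 2.08 ± 0.37 (adjusted p = 2.834e-05). With EMC7 the change of 0.33 ± 0.29 was not called (adjusted p = 0.4334), and with EMC10 it was 0.68 ± 0.24 (adjusted p = 0.02791). Under scaling on library totals SLC2A3 changed sign with EMC7 (-0.69) and EMC10 (-0.44) and its mean was 0.08, and the lists of luminal and secreted proteins gave -0.41 with EMC7; without the first EMC7 IP the EMC7 value was -0.12. The EMC10 call was lost without input 1 (adjusted p = 0.148) or IP 3 (adjusted p = 0.377). SLC2A14, a near-identical copy of SLC2A3, had 17 counts in all, and how the counting shared reads between them is not given in the sources used here.

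SLC2A4 (GLUT4), the insulin-responsive transporter, rose by 1.89 ± 0.17. The 5 tested members of the class often found on internal membranes lay at 2.57 for SLC2A8, 2.31 for SLC2A6, 2.17 for SLC2A13, 2.14 for SLC2A12 and 1.79 for SLC2A10. SLC2A8 (GLUT8) went from 10.5 and 16.8 to 67.3 and 122 CPM in the EMC6 line, from 23.5 and 25.1 to 162 and 137 in the EMC7 line, and from 23.7, 29.0 and 26.5 to 114, 121 and 139 in the EMC10 line. SLC2A13, which carries myo-inositol with protons, went from 64.0 and 65.3 to 257 and 223 CPM in the EMC7 line. The class I members (SLC2A1, SLC2A3 and SLC2A4) had a median of 1.42 and the 5 class III members 2.17, a grouping made after the values were seen and therefore only described. SLC2A10 rested on 73 counts in all and may have passed the filter, which took in the IPs, through those alone. Its change was not called with EMC10 (1.13 ± 0.77, adjusted p = 0.2692), and its mean lost the call on library totals (0.86, adjusted p = 0.0534).

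**Figure D2:**
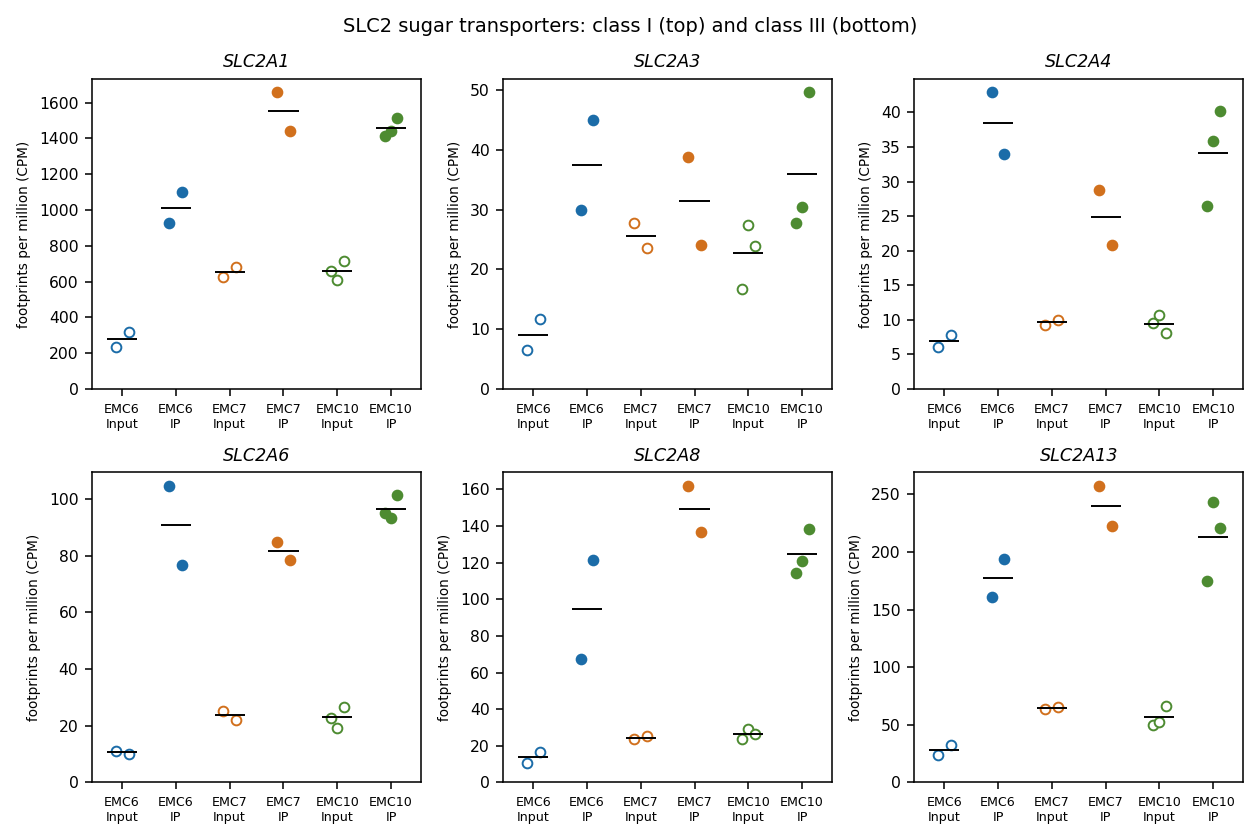
CPM of footprints (vertical axis, each panel on its own scale from 0) of 6 SLC2 transporters in each input (open circles) and IP (filled circles) of the EMC6, EMC7 and EMC10 lines; bars are group means. IPs lie above inputs in all panels except SLC2A3, where the second EMC7 IP, at 24.0, falls between the 2 inputs at 23.5 and 27.7.

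Other sugar and sugar-derivative carriers were enriched as well. SLC5A3, the sodium-coupled myo-inositol transporter used in osmotic balance, rose by 2.47 ± 0.10 and overlaps MRPS6 in the annotation. SLC37A4, which brings glucose 6-phosphate into the ER lumen, rose by 2.31 ± 0.13, and its relatives SLC37A3 (from 172 and 139 to 623 and 541 CPM in the EMC7 line) and SLC37A1 (from 14.9 and 17.7 to 39.6 and 54.3) were called higher with each bait, SLC37A1 not with EMC7 on library totals (0.49, adjusted p = 0.0811). SLC45A4 rose by 2.94 ± 0.17 and SLC45A1 by 2.94 ± 0.38, though SLC45A1 had 11 counts over the EMC6 inputs and 9 over the EMC6 IPs and was not called there (1.64 ± 0.73, adjusted p = 0.09519; -0.056 without the second EMC6 IP). SLC50A1, a sugar efflux protein of the SWEET family, rose by 1.35 ± 0.14, among the 8 smallest. Its call was lost on library totals with EMC7 (0.08) and EMC10 (0.21), on the luminal and secreted lists with EMC7 (0.36), and without the second EMC6 IP with EMC6 (1.00, adjusted p = 0.0729).

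The SLC16 monocarboxylate transporters carry lactate, pyruvate and related acids, and some of them carry aromatic amino acids. All 9 tested members were called higher with each bait, where 15.2% of all genes were. The filter took in the IPs, and SLC16A4 and SLC16A7 had 38 and 65 counts over the inputs against 108 and 116 over the IPs. These 2 may have passed through their IPs alone, so the full count may be partly set by which members passed. SLC16A1 (MCT1), the common lactate carrier (chromosome 1, 112911847 to 112956196), held 137326 of the counts of the 92 members. Its inputs had 1316 and 1476 CPM in the EMC6 line, 3143 and 3111 in the EMC7 line, and 2582, 2725 and 3220 in the EMC10 line. Its IPs had 7301 and 7659, then 11692 and 10226, then 10742, 10829 and 12118 CPM. All 7 IPs exceeded all 7 inputs, and the change of 2.07 ± 0.08 (adjusted p = 5.481e-22) was the smallest in the family and the one with the smallest error.

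SLC16A14, whose substrate is not settled, had inputs of 20.3 and 30.1 CPM with EMC6, 115 and 110 with EMC7, and 91.3, 121 and 95.6 with EMC10. Its IPs held 209 and 346, then 809 and 661, then 654, 715 and 706 CPM. The groups were far apart in each line, and the change was 2.98 ± 0.12 (adjusted p = 2.529e-22). Others of the family were SLC16A13 at 2.99, SLC16A9 at 2.90, SLC16A10 (an aromatic amino acid carrier) at 2.76 and SLC16A6 at 2.42.

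SLC16A4 (3.27 ± 0.38) and SLC16A7 (3.14 ± 0.37), the pyruvate carrier MCT2, rested on 146 and 181 counts. The EMC6 inputs held 2 counts of SLC16A7 in all, so its better measured change is that with EMC10, 2.63 ± 0.33, from 3.25, 3.96 and 2.41 to 20.5, 26.9 and 13.4 CPM. SLC16A4 lost its EMC6 call without the second EMC6 IP (2.34, adjusted p = 0.262).

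Some carriers of this family, SLC16A1 among them, reach the surface with a single-pass glycoprotein partner, chiefly BSG (basigin) or EMB (embigin). NPTN (neuroplastin) is a relative that can take that place. BSG had inputs of 2157 and 2550 CPM with EMC6, 4132 and 4010 with EMC7, and 3616, 3924 and 4161 with EMC10, and IPs of 2741 and 3314, then 4553 and 4292, then 4071, 4133 and 4826. Its groups overlapped in the EMC10 line; the change over the lines was 0.21 ± 0.08 (adjusted p = 0.03103), called with none of the 3 baits alone. NPTN fell by 0.32 ± 0.10 on the log2 scale (adjusted p = 0.005281), from 421 and 417 to 315 and 303 CPM with EMC7, and EMB was not called at -0.16 ± 0.14 (adjusted p = 0.3740). The smallest SLC16 change was 2.07.

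**Figure D3:**
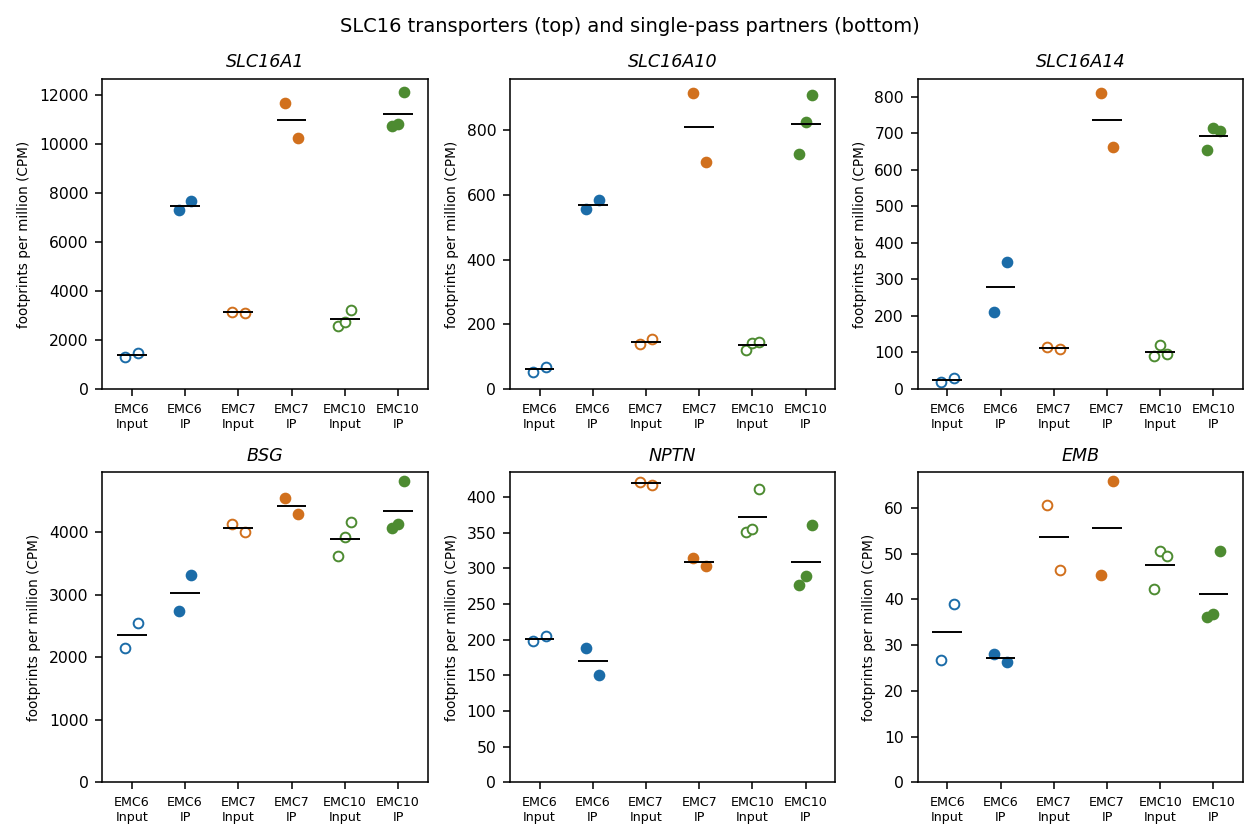
CPM of footprints (vertical axis, each panel on its own scale from 0) in each input (open circles) and IP (filled circles) of the 3 lines. The top row has 3 SLC16 transporters, and the bottom row has BSG, NPTN and EMB, single-pass partners of some carriers of that family. Bars are group means. SLC16A1 IPs reach 7301 to 12118 against inputs of 1316 to 3220, while BSG IPs reach 2741 to 4826 against inputs of 2157 to 4161.

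The 7 tested vitamin carriers were called higher over the mean of the lines, by changes from 1.61 to 3.41. SLC23A2, the sodium-coupled ascorbate transporter (chromosome 20, 4852358 to 5010313), went from 91.5 and 111 to 1243 and 1666 CPM in the EMC6 line, from 214 and 201 to 1770 and 1644 in the EMC7 line, and from 177, 178 and 189 to 1907, 1607 and 1997 in the EMC10 line. Each IP group lay well above its inputs, and the change was 3.41 ± 0.10 (adjusted p = 4.242e-26). SLC5A6, which carries biotin and pantothenate, rose by 3.20 ± 0.10 and overlaps ATRAID.

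SLC19A1, the reduced folate carrier (chromosome 21, 45502517 to 45563025, overlapping COL18A1), went from 151 and 163 to 1785 and 1879 CPM with EMC6, from 490 and 485 to 3834 and 3369 with EMC7, and from 473, 423 and 510 to 3828, 3538 and 4103 with EMC10. It rose by 3.15 ± 0.09 (adjusted p = 2.590e-26). The thiamine carriers SLC19A2 and SLC19A3 rose by 3.07 ± 0.13 and 2.72 ± 0.14. Lower values were those of SLC46A1, the proton-coupled folate transporter, at 1.90 ± 0.12, and SLC52A2, a riboflavin transporter, at 1.61 ± 0.10. Over these 7 genes, grouped after the values were seen, the median was 3.07.

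Changes of the SLC29 nucleoside carriers and the SLC22 and SLC47 organic ion carriers ran from 1.79 for SLC29A3 to 3.20 for SLC22A31. SLC29A1 (ENT1), the equilibrative nucleoside transporter of the plasma membrane (chromosome 6, 44219615 to 44234142), rose by 2.18 ± 0.09, SLC29A2 by 1.90 ± 0.17 and the monoamine carrier SLC29A4 by 3.03 ± 0.18. SLC29A4 overlaps TNRC18, which held 2292 counts to its 396. SLC29A3, the lysosomal nucleoside carrier, changed by 1.79 ± 0.26, with no call in the EMC6 line (1.46 ± 0.58, adjusted p = 0.05836; adjusted p = 0.0396 with the pair as a block).

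Of the SLC22 organic ion carriers all 5 tested were called higher with each bait. The filter took in the IPs, and SLC22A31, with 26 counts over the inputs and 60 over the IPs, may have passed through its IPs alone. SLC22A5 (OCTN2), the carnitine transporter, had the most counts and rose by 2.18 ± 0.11, and the ends of the family were SLC22A31 at 3.20 ± 0.44, on 86 counts in all and 3 in the EMC6 inputs, and SLC22A23 at 2.16 ± 0.12. SLC22A31 lost its EMC6 call without the second EMC6 IP (adjusted p = 0.351) and its EMC7 call without the first EMC7 IP (adjusted p = 0.203). SLC47A1 (MATE1), which exports organic cations in kidney and liver, rose by 3.10 ± 0.12.

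The SLCO transporters of organic anions, thyroid hormones and prostaglandins held 5 tested members, of which SLCO4A1 rose most, by 2.90 ± 0.10, and SLCO5A1 least, by 1.75 ± 0.19. SLCO2A1, the prostaglandin transporter, had EMC6 inputs of 2.53 and 15.4 CPM and IPs of 31.8 and 111. The EMC6 replicates were far apart in both fractions, and the change was called with EMC6 (3.08 ± 0.64) but not with EMC7 (2.14 ± 0.84, adjusted p = 0.07953) or EMC10 (1.61 ± 0.72, adjusted p = 0.1116). The peptide transporter SLC15A1 was likewise uneven: its EMC6 line counts were 15 and 38 in inputs and 39 and 175 in IPs, where no input of the other lines had more than 7. It was called with EMC6 (3.89 ± 0.37) and EMC10 (2.56 ± 0.74) and not with EMC7 (1.16 ± 1.51, adjusted p = 0.6143).

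Carriers and activators of lipids and their building blocks rose in each case tested. SLC33A1, which supplies acetyl-CoA to the ER lumen, rose by 2.93 ± 0.10. Of the fatty acid transport proteins, which also act as acyl-CoA synthetases, SLC27A2 rose by 2.45 ± 0.10 and SLC27A4 by 1.87 ± 0.10. In the choline transporter family the ends were SLC44A2 at 3.10 ± 0.14 and SLC44A5 at 1.62 ± 0.11, and the choline carrier SLC44A1 lay at 1.88 ± 0.10. MFSD2A, which takes up lysophosphatidylcholine with docosahexaenoic acid, rose by 2.84 ± 0.10. The bile acid transporter relatives of SLC10 had the lowest median among families with 3 or more tested members, with SLC10A7 at 1.94 ± 0.18, SLC10A3 at 1.73 ± 0.16 and SLC10A4 at 1.41 ± 0.17.

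All 15 MFSD genes were called higher with EMC6, and MFSD4A was the exception with EMC10 (1.16 ± 0.56, adjusted p = 0.1088, on 132 counts in all). MFSD12, needed for cysteine import into melanosomes and lysosomes (chromosome 19, 3538275 to 3557586), led the family at 3.57 ± 0.10 (adjusted p = 4.242e-26). Its inputs held 27.5 and 29.1 CPM with EMC6, 59.8 and 75.0 with EMC7, and 67.2, 69.7 and 72.1 with EMC10. The IPs held 423 and 518, then 675 and 615, then 767, 665 and 773 CPM. No IP came near any input. MFSD13A followed at 3.39 ± 0.16 and MFSD14B at 3.00 ± 0.11, MFSD10 with the most input counts rose by 2.54 ± 0.11, and MFSD4B was lowest at 1.55 ± 0.12.

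Lysosomal MFS proteins covered much of that range. SLC15A4, the proton-coupled histidine and peptide carrier, rose by 2.71 ± 0.11 and MFSD1 by 2.41 ± 0.12. MFSD8 (CLN7), mutated in a childhood lysosomal storage disease, rose by 1.92 ± 0.10, and SLC49A4, SLC46A3 and the sialic acid exporter SLC17A5 (sialin) by 1.76 ± 0.12, 1.64 ± 0.15 and 1.53 ± 0.10. This grouping of 7, which includes MFSD12, was made after the values were seen and had a median of 1.92.

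The 8 lowest members were the transporters of copper and haem, with SLC2A1, SLC2A3, SLC10A4, SLC17A5 and SLC50A1. Not all families of the rule have the MFS fold, and changes were not compared by that fold. SLC31A1 (CTR1), the high-affinity copper importer (chromosome 9, 113221544 to 113264492), had inputs of 34.7 and 56.5 CPM with EMC6, 104 and 104 with EMC7, and 91.1, 86.4 and 102 with EMC10. Its IPs had 59.8 and 113, then 220.0 and 192, then 170 and 219 and 197 CPM. The groups did not overlap within lines, though the lowest EMC6 IP was just above the higher EMC6 input. The change was 1.01 ± 0.12 (adjusted p = 6.299e-09), close to equal with the 3 baits at 0.98, 0.99 and 1.07. On library totals it was 0.06 over the lines, with -0.033 for EMC7 and -0.043 for EMC10, and without the second EMC6 IP the EMC6 value was 0.38 (adjusted p = 0.554).

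SLC31A2 (CTR2), a related protein of intracellular membranes (chromosome 9, 113151007 to 113164140), was the only tested member called with no bait and not over the mean. Its inputs held 1.81 and 2.05 CPM, 3.26 and 3.54, and 3.25, 2.64 and 4.82, and its IPs 1.87 and 1.10, 3.60 and 10.5, and 4.82, 2.69 and 12.4. The groups overlapped in the EMC6 and EMC10 lines, and with 117 counts in all the change of 0.46 ± 0.52 (adjusted p = 0.4851) left a wide margin. It was below 0 over the lines under scaling on library totals (-0.48) or on the luminal and secreted lists (-0.035). SLC31A2 also overlaps FKBP15, which held 444 counts.

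SLC48A1, which moves haem from endolysosomes to the cytosol, changed by 1.43 ± 0.26 (adjusted p = 1.925e-05) on 266 counts. It was called with EMC7 (1.69 ± 0.34) and EMC10 (1.12 ± 0.28) but not with EMC6 (1.47 ± 0.61, adjusted p = 0.07253), and its mean lost the call on library totals (0.48, adjusted p = 0.0697). Without the second EMC6 input the EMC6 change was called (2.00, adjusted p = 0.0421). The iron exporter SLC40A1 (ferroportin) rose by 2.34 ± 0.21.

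**Figure D4:**
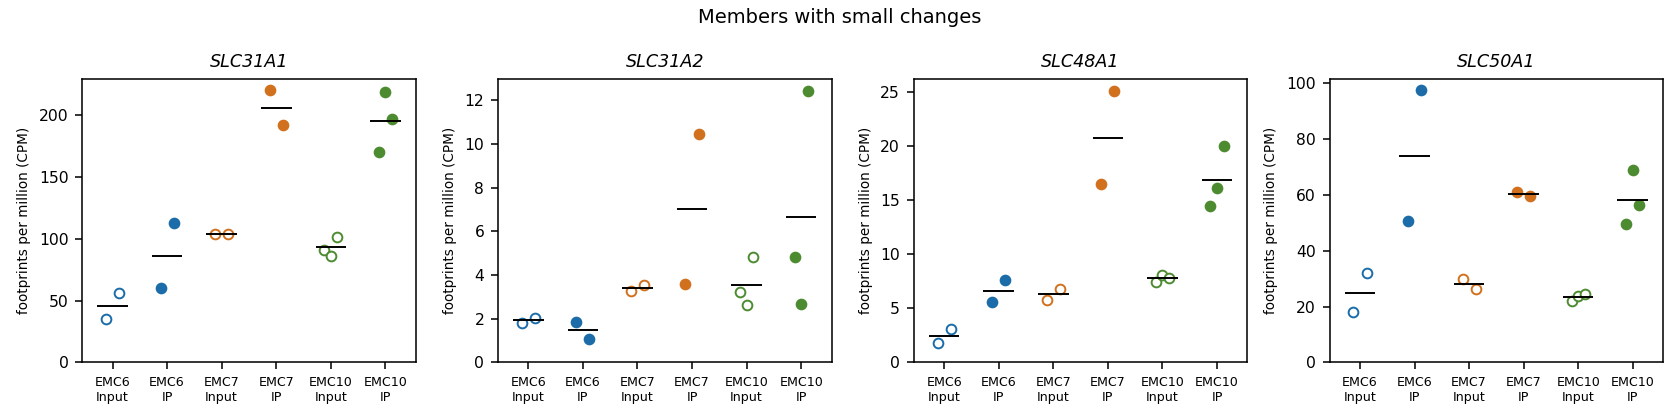
CPM of footprints (vertical axis, each panel on its own scale from 0) of SLC31A1, SLC31A2, SLC48A1 and SLC50A1 in each input (open circles) and IP (filled circles) of the 3 lines; bars are group means. SLC31A1 IPs lie above the inputs of their own line, with 59.8 against 56.5 at the closest, and the SLC31A2 IPs of 1.10 to 12.4 overlap the inputs.

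Lists of related genes gave a frame for these values. MFS proteins whose symbols fall outside the rule rose in 5 of 5 tested cases over the mean of the lines, with a median of 2.82: the choline carriers FLVCR1 (2.82 ± 0.10) and FLVCR2, the lysosomal SPNS1 (2.65 ± 0.11), the synaptic vesicle protein SV2A (2.48 ± 0.10) and UNC93B1 (3.47 ± 0.13), which escorts nucleic acid sensing Toll-like receptors. FLVCR2 had a single count over both EMC6 inputs and went from 2.56 and 2.90 to 15.1 and 12.5 CPM in the EMC7 line. It may have passed the filter, which took in the IPs, through those alone. ER luminal proteins, which enter the lumen through a signal peptide, were called higher in 29 of 48 cases with a median of 0.42, and lysosomal and secreted proteins in 35 of 50 with 0.57. Cytosolic glycolysis enzymes, which act on the same sugars, were called higher in 0 of 17 cases (0 also at an unadjusted p of 0.05 in edgeR) and lower in 11, with a median of -0.37. Cytosolic ribosomal proteins were called lower in 28 of 31 cases. Of all genes 23.7% were called higher and 26.9% lower in this comparison.

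The change was larger with EMC6 than with the other baits for most members, but the difference itself was called for few. The EMC6 change exceeded the EMC7 change in 72 of 85 members (84.7%) and the EMC10 change in 72 (84.7%), where 51.2% and 55.3% of all genes had the same sign. Median differences of the members were 0.59 against EMC7 and 0.40 against EMC10, where all genes had 0.015 and 0.056. Their size depended on single EMC6 libraries: the 2 medians were 0.35 and 0.18 without the second EMC6 IP, 0.36 and 0.21 without the first EMC6 input, 0.81 and 0.67 without the first EMC6 IP, and 1.01 and 0.82 without the second EMC6 input. On library totals they were 0.90 and 0.81, where all genes had 0.32 and 0.46. On the luminal and secreted lists the median against EMC7 was 0.97, where all genes had 0.38. The 3 comparisons share libraries and are not independent. In edgeR's test of the difference, 2 members were called higher with EMC6 than with EMC7, where 0.190% of all genes were called higher and 0.328% lower, and 0 against EMC10 (0.0634% and 0.0106% of all genes). At an unadjusted p of 0.05, edgeR had 32 members (37.6%) higher and 1 lower against EMC7, where 3.85% and 5.11% of all genes were. Against EMC10 it had 20 (23.5%) and 1, where 4.02% and 2.22% of all genes were. DESeq2 called 10 members higher against EMC7 and 3 against EMC10 at an adjusted p of 0.05, with 0.677% and 0.106% of all genes.

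MFSD14B, an MFS protein with no settled substrate (chromosome 9, 94374417 to 94461042), had EMC6 inputs of 33.3 and 48.9 CPM and IPs of 475 and 523, against EMC7 inputs of 83.1 and 81.1 and IPs of 514 and 391. On this scale the IP levels of the lines overlapped, while the EMC6 inputs were lower. As CPM on library totals, with no TMM scaling, the EMC6 IPs, at 493 and 497, lay above the EMC7 IPs at 318 and 253, and the EMC6 inputs stayed lower, at 54.4 and 77.9 against 105 and 105. The changes were 3.60 ± 0.20 and 2.47 ± 0.19, a difference of 1.13 ± 0.27 (adjusted p = 0.03283, 95% interval 0.60 to 1.67). SLC29A1 had EMC6 inputs of 299 and 376 CPM and IPs of 2049 and 2330, against EMC7 inputs of 797 and 825 and IPs of 2939 and 2683. With TMM scaling both the inputs and the IPs were lower in the EMC6 line. On library totals the order of the IPs turned, with 2127 and 2215 in the EMC6 line against 1818 and 1739 in the EMC7 line, while the EMC6 inputs stayed lower, at 489 and 599 against 1009 and 1069. The difference was 0.90 ± 0.22 (adjusted p = 0.04130, 95% interval 0.46 to 1.35). With the input-IP pair as a block, 30 members were higher with EMC6 than with EMC7 and 16 than with EMC10. The block raised the calls over all genes as well, to 2.82% higher and 3.49% lower against EMC7 and to 1.88% and 0.349% against EMC10. The members' calls moved between 0 and 28 against EMC7 and between 0 and 16 against EMC10 when single libraries were left out, both highest without the second EMC6 input, where 251 and 226 of 9874 genes tested were called higher. The MFSD14B call was lost in 10 and the SLC29A1 call in 12 of the 14 such fits.

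Between EMC7 and EMC10 the median difference was smaller, at -0.12. By edgeR's test 0 members differed, where 0.148% of all genes were higher and 0.0106% lower with EMC7, and DESeq2 also called 0. At an unadjusted p of 0.05 edgeR had 2 members higher and 4 lower with EMC7, where 5.12% and 1.45% of all genes were. The largest difference towards EMC7 was that of SLC44A3, at 1.34 ± 0.42 (adjusted p = 0.2797), with 3.30 ± 0.32 for EMC7 and 1.96 ± 0.27 for EMC10. With the pair as a block, 1 member was higher and 8 lower with EMC7, where 3.68% and 0.698% of all genes were. Across the 85 members the changes of the 2 lines correlated at r = 0.82 (rho 0.83), against 0.65 (rho 0.69) for EMC6 and EMC7 and 0.74 (rho 0.80) for EMC6 and EMC10. Over all 9458 genes tested the same values were 0.82 (rho 0.70), 0.75 (rho 0.66) and 0.77 (rho 0.67). They describe genes that share libraries and depth.

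**Figure D5:**
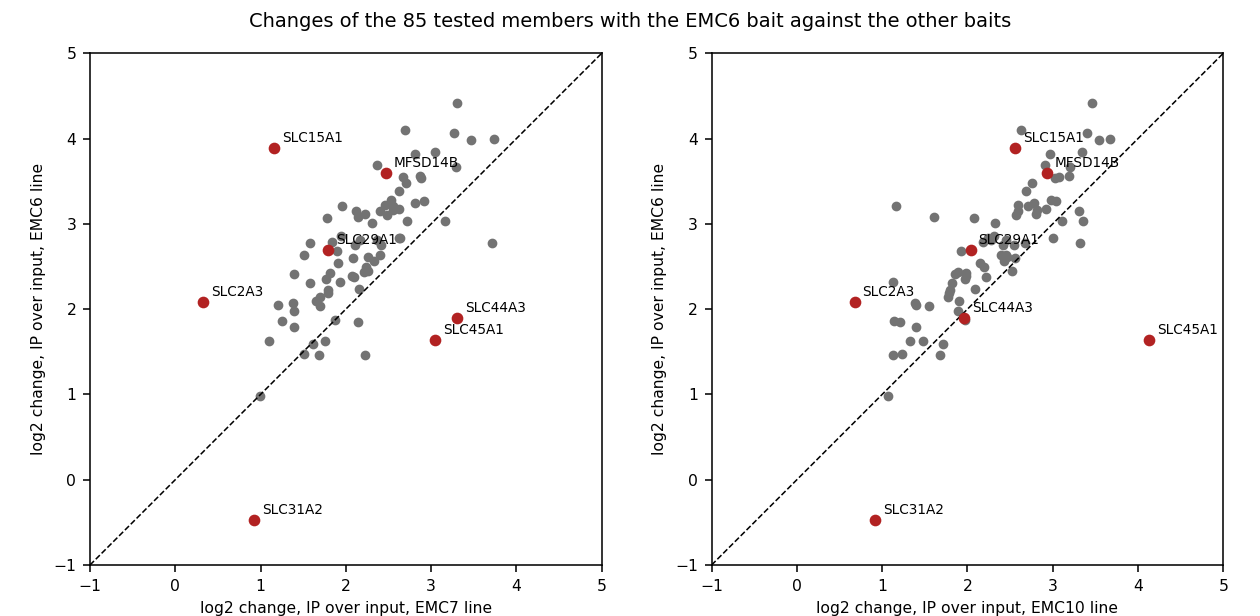
Log2 change of IP over input in the EMC6 line (vertical axis) against the EMC7 line (left) and the EMC10 line (right) for the 85 tested members, each a point; the dashed line marks equal change and red points are named. In each panel 72 of 85 points lie above the dashed line.

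The lines differed already in their inputs. The mean EMC6 input lay below both other input means for 73 of 85 members (85.9%), where 40.9% of all genes did so, and the mean EMC6 IP lay below both other IP means for 63 (74.1%), where 41.4% did. On library totals the inputs kept this order for 64 members, against 27.9% of all genes. The IPs kept it for 27, against 16.5% of all genes, and had the EMC6 mean above both others for 49, against 73.4% of all genes. As a share of all counts on genes, the 92 members took 0.665% and 0.826% of the EMC6 inputs, 1.30% to 1.32% of the EMC7 inputs and 1.22% to 1.32% of the EMC10 inputs, and 2.96% to 3.22% of the EMC6 IPs, 2.75% to 3.03% of the EMC7 IPs and 2.81% to 2.96% of the EMC10 IPs. In bulk inputs of microsome footprints, fewer cells with a message, less message per cell, less translation and less ER binding cannot be told apart. The EMC6 line also had the knockout background and the fewest counts, and the part of these in the larger EMC6 changes was not tested.

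The 7 members with 20 or more counts that did not pass the filter were SLC16A3 (the lactate exporter MCT4), SLC16A5, SLC16A11, SLC2A5 (the fructose transporter GLUT5), SLC22A4, SLC27A5 and SLC37A2. Summed over libraries, the 7 inputs and the 7 IPs held 12 and 15 counts of SLC16A3, 5 and 26 of SLC16A5, 11 and 16 of SLC16A11, 4 and 16 of SLC2A5, 20 and 27 of SLC22A4, 18 and 10 of SLC27A5, and 24 and 30 of SLC37A2. The IP libraries were shallower than the inputs, so equal counts are a higher share in the IP. Of all 92 members, 16 overlap another counted protein-coding gene when each gene is taken from start to end. Whether such pairs share counted sequence was not checked. Where they do, their reads may not be told apart, as the strand setting is not stated.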

How the data were processed

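Ribosome footprints were measured in 14 libraries of 3 lines. What the authors deposited is 1 table of raw footprint counts by symbol for each library, with no normalization. Per the submitters' processing notes, hg38 was the build and TopHat2 2.1.0, Bowtie2 2.2.6 and cutadapt 4.1 were used. Which annotation, strand setting and duplicate removal lay behind the counts is not stated there. The 5 rows naming no gene were left out of library sizes.

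Libraries were scaled by TMM and genes filtered with filterByExpr (9458 kept), then tested in a single fit of all 14 libraries with a mean for each of 6 groups (edgeR 4.0.16, robust quasi-likelihood, R 4.3.3). P-values were adjusted by Benjamini-Hochberg over all genes tested. Paired ratios used a prior count of 2. The fitting was tested on simulated counts. Positions are RefSeq's on GRCh38; 83 members matched by symbol and 9 by an older symbol. The labels give replicate number as batch and each IP was made from an input, so numbers pair libraries. Input and IP of the same number correlated at r = 0.041 to 0.272 in their deviations from the group means. Each input did so best with its own IP. With 2 replicates the deviations mirror each other, so the EMC6 and EMC7 lines each give 1 value (0.272 and 0.074). There the match holds or fails for both inputs at once, and it is weak evidence of the pairing. The labels do not name separate cultures, and p-values therefore reflect only how these samples vary, which can be technical variation. Replicates correlated at r = 0.911 to 0.987 and differed by more than sampling noise.

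Members and lists were chosen with earlier results of these data known. Named were the 8 highest and 8 lowest members, those not called over the mean, the ends of each family with 3 or more tested members, called differences between baits, SLC2 and SLC16 members, the member with the most input counts per family, and the related lists; further members were named as examples of a role, after their values were seen. The named genes leave out 1 member that is not reported here. Alternatives were DESeq2 1.42.0, scaling on library size or on lists, no bait messages, other filters, a fold of 1.5, the replicate block, each line alone and leaving out each library.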

Additional observations from a re-analysis of the deposited data

Results flagged for a closer look

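For 2 members the change differed between baits by edgeR's test of the difference: MFSD14B by 1.13 ± 0.27 (log2, EMC6 over EMC7, adjusted p = 0.03283) and SLC29A1 by 0.90 ± 0.22 (adjusted p = 0.04130). Both pairs of each line had the higher value with EMC6. Both calls were lost against a fold of 1.5 (adjusted p = 0.891 and 1.00), and both members had lower inputs in the EMC6 line; the part of the inputs in these differences was not tested.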

How the results depend on the processing

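Over named members, 5395 results kept their direction and side of the threshold, 79 lost and 7 gained the call, and 11 changed sign. The sign changes were, on library totals, SLC2A3 with EMC7 (-0.69, adjusted p = 0.0259) and EMC10 (-0.44), SLC31A1 with EMC7 (-0.033) and EMC10 (-0.043), and SLC31A2 with EMC7 (-0.081), EMC10 (-0.19) and over the lines (-0.48); on the ER luminal, lysosomal and secreted lists, SLC2A3 with EMC7 (-0.41) and SLC31A2 over the lines (-0.035); without the first EMC7 IP, SLC2A3 with EMC7 (-0.12, to 0.59 over the single-library omissions); and without the second EMC6 IP, SLC45A1 with EMC6 (-0.056, to 2.26). Their cause was not tested beyond the shift of all genes with scaling. Members called lower with EMC7 numbered 1 on library totals.

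Members called higher with EMC6 than with EMC7 numbered 2 (18 of all genes tested), and 10 by DESeq2 (64 of all genes), 25 on library totals (195), 27 on the lists (234), 5 with all genes with a count (37), 30 with the replicate block (267) and 0 against a fold of 1.5 (4). Against EMC10 they numbered 0 (6 of all genes), and 3 by DESeq2 (10), 31 on library totals (493) and 16 with the replicate block (178). Between EMC7 and EMC10 the replicate block gave 1 higher and 8 lower (348 and 66 of all genes, 14 and 1 without it). It moved no other count by over 1.5 times and changed 1 call of a named member against input, SLC29A3 with EMC6 (adjusted p = 0.0396). The cause was not tested.

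When single libraries were left out, the members' median change was 2.46 to 3.08 with EMC6, 2.04 to 2.28 with EMC7 and 2.25 to 2.39 with EMC10. In the same order, the medians of all genes tested were -0.13 to 0.00, -0.17 to -0.11 and -0.18 to -0.16. The differences ranged from 0 to 28 (EMC6 against EMC7) and 0 to 16 (EMC6 against EMC10), and the SLC10 median above that of all genes from 1.70 to 2.13.

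SLC31A2, SLC2A10 and SLC45A1 rested on 117, 73 and 105 counts and had SEs of 0.52, 0.43 and 0.38 over the lines. SLC15A1, SLC22A31 and SLCO2A1 had SEs of 0.74, 0.44 and 0.43. A small change in any of these members is not detectable. The planned description of protein sequence features was not run, as no protein sequences were used here.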
